A study of Mus musculus with 11 samples.

Results

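The 10 genes of the fibroblast growth factor (FGF) pathway described here were followed across 4 brain regions in sorted adult mouse astrocytes. They are the ligands Fgf1 and Fgf2, the receptors Fgfr1, Fgfr2 and Fgfr3, the Sprouty genes Spry1, Spry2 and Spry4, and the ETS factors Etv4 and Etv5. They were taken by name, 10 of 24421 genes listed per sample. The mice were untreated, aged 16 weeks, of both sexes and on a C57BL/6 background. RNA-seq samples numbered 3 for the olfactory bulb (OB), 3 for the hippocampus (HC), 2 for the cortex (CX) and 3 for the brainstem (BS). All samples carry the Aldh1l1-eGFP transgene, a bacterial artificial chromosome in which the promoter of the astrocyte gene Aldh1l1 drives green fluorescence, and eGFP-positive cells were collected by fluorescence activated cell sorting. Any cell in which that promoter was active could pass the gate. The sources used here do not state whether each sample came from its own animal or from several pooled ones, so that p-values measure only the spread between these samples.

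FGFs bind receptor tyrosine kinases at the cell surface together with heparan sulfate, a sugar chain carried by membrane proteins, and the receptors pass the signal on through Ras and the ERK kinases. ERK activity raises transcription of Etv4 and Etv5, and of the Sprouty genes, whose proteins in turn restrain the pathway. The mRNA of Etv and Sprouty genes is therefore widely used as a readout of FGF signalling. In the brain Fgfr3 is a well known astrocyte gene, Fgfr1 is also made by neurons and progenitors, and Fgfr2 is shared by astrocytes and oligodendrocytes.

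Values are the deposited normalized values, a gene's read count divided by 1 size factor per sample, and 1 read was worth between 0.367 and 2.10. Reads on genes ranged from 2830746 to 14151670 per sample, with a median of 5552215. The 10 astrocyte markers were present in every sample, with a geometric mean from 6182 to 7090 in OB, 4835 to 7547 in HC, 7645 to 8009 in CX and 3336 to 7014 in BS. Markers of other cells were present as well. The sum of 9 choroid plexus markers lay between 74780 and 357300 in BS and between 102400 and 212100 in HC, against 2499 to 3064 in OB and 3287 to 7979 in CX, and all 9 differed among the regions. The sum of 10 oligodendrocyte lineage markers was 50240 to 85790 in BS and 10900 to 37660 in the other regions. Neuroblast and cycling markers summed to between 841 and 1151 in OB and to at most 466 elsewhere. Of 10 neuron markers 7 differed among the regions, and 3 were higher and 4 lower in OB than in BS. The sum of 8 fibroblast and meninges markers was 1889 to 9018 in BS and 2157 to 3980 in HC. It was 577 to 802 in OB and 574 to 639 in CX. Igf2 made up most of the HC sum, with means of 2472 in HC, 3316 in BS, 227 in OB and 367 in CX. Of the others, Col1a1, Col3a1, Dcn and Slc6a13 had lower means in HC than in OB, and Pdgfra, Col1a2 and Lum higher ones. Of the 7 olfactory ensheathing markers, 6 were higher in OB than in BS. The remaining one was lower, and the sum of the list was 6177 to 8180 in OB and 10170 to 16410 in BS. All 4 olfactory sensory neuron markers that could be tested were higher in OB. In such bulk samples fewer cells of a type and less RNA per cell cannot be told apart, and the part of these other cells in the results below was not tested beyond the values given.

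Each of the 10 members was detected in every sample, and 6 of the 8 differences called between pairs of regions were in the receptor genes Fgfr1 and Fgfr2. Fgfr1 was the member that differed most among the regions, with the order OB, CX, HC, BS, and its mean was 3.72 times as high in OB as in BS on the log2(value + 1) scale. Fgfr2 was lowest in BS. Spry4 and Etv4 were higher in OB than in BS, in calls near the threshold. Fgf1, Fgf2, Fgfr3, Spry1, Spry2 and Etv5 passed none of these tests. In an F-test over the 4 region means with limma, called at an adjusted p under 0.05, 2 of the 10 members differed, Fgfr1 (adjusted p = 5.34e-05) and Fgfr2 (adjusted p = 0.0230). Over all 13875 genes tested the share was 16.5%, so that 2 of 10 is close to the background. Another 2 members, Spry4 and Etv4, had an unadjusted p under 0.05 but adjusted p-values of 0.113 and 0.136. All 10 members passed the filter on low counts.

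**Figure D1:**
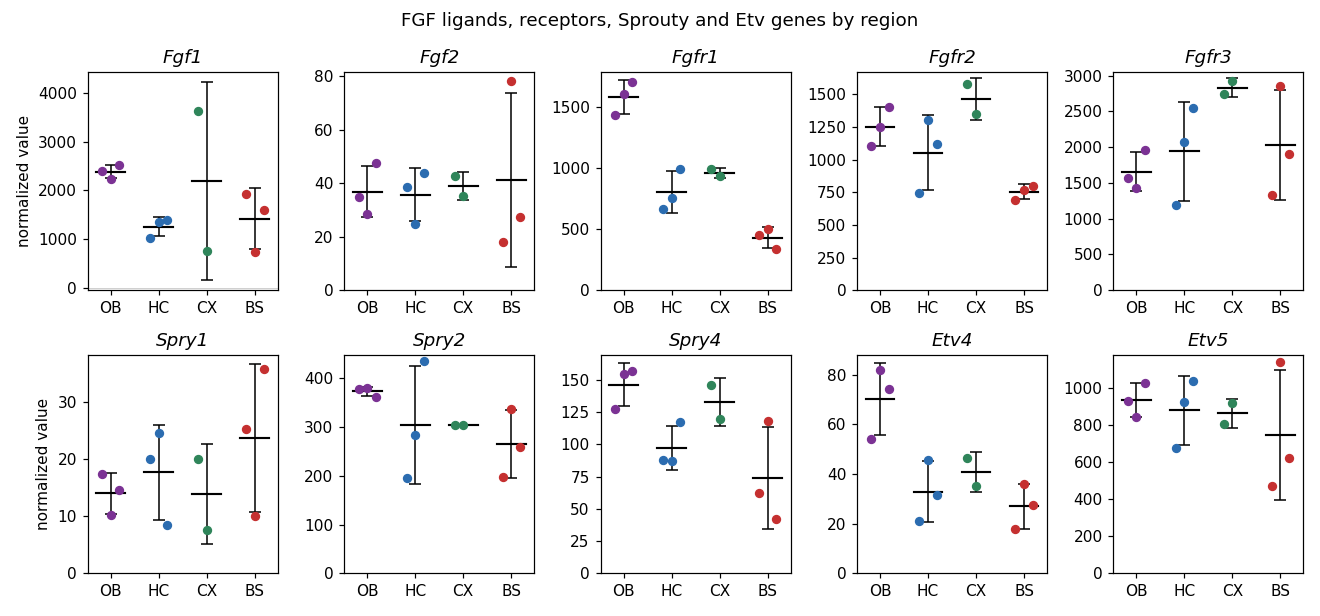
Normalized value of each of the 10 members (vertical axes, linear, each gene on its own scale) in the 3 OB, 3 HC, 2 CX and 3 BS samples, with 1 point per sample, a line at the region mean and bars of 1 SD. All 3 OB points of Fgfr1 and of Etv4 lie above every other sample, all 3 BS points of Fgfr1 lie below, and the 2 CX points of Fgf1 lie 4.85-fold apart. Of all genes tested, 4.93% had all OB samples on top and 4.19% had all BS samples at the bottom.

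Set side by side per kilobase of transcript, the members covered a wide range of levels. Means over the 11 samples were 466 per kb for Fgfr3, 447 for Fgf1, 229 for Fgfr2, 215 for Etv5, 188 for Fgfr1 and 149 for Spry2. The other 4 were far lower, with 23.3 per kb for Spry4, 17.9 for Etv4, 7.08 for Spry1 and 6.38 for Fgf2. Among the members, Fgf1 was thus far above Fgf2, and Etv5 and Spry2 were above the other Etv and Sprouty genes.

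Fgf1 encodes a ligand without a classical secretion signal that can bind all FGF receptors. The gene lies on chromosome 18 from 38838672 to 38929470 (GRCm38.p6). Its values were 2399, 2243 and 2512 in OB, 1021, 1358 and 1388 in HC, 3633 and 750 in CX, and 1928, 727 and 1598 in BS. The OB samples were all above the HC and BS samples, which overlapped, and of the 2 CX samples 1 was above every OB sample and 1 below every HC sample. OB exceeded HC by 0.94 ± 0.44 (SE) on the log2 scale, which did not pass the test (95% interval 0.01 to 1.87, adjusted p = 0.268). The 2 CX samples were far apart for this gene. They differed 4.85-fold, and only 0.140% of 4271 genes with a mean value of at least 200 differed as much between these 2 samples, where the median ratio was 1.13. In the fit without either of them, where the lone CX sample is assumed to vary like the other regions, Fgf1 differed among the regions (adjusted p = 0.0382 without the first and 0.0265 without the second). The geometric means of the astrocyte markers in these samples were 8009 and 7645.

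Fgf2, a ligand of the same kind, lies on chromosome 3 from 37348477 to 37410106. It was counted with only 13 to 119 reads per sample. Region means were 36.9 ± 9.67 (SD, n = 3) in OB, 35.7 ± 9.86 (SD, n = 3) in HC, 39.0 ± 5.27 (SD, n = 2) in CX and 41.1 ± 32.4 (SD, n = 3) in BS. The BS samples alone spanned 17.9 to 78.1, the whole range of the gene, and no regional difference was detectable at this depth (F-test adjusted p = 0.994). Its exons share 640 bases with those of Nudt6 on the opposite strand, and whether counting used the strand is not given in the sources used here, so that its reads may include some of Nudt6.

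Fgfr1, on chromosome 8 from 25518759 to 25575718, encodes the receptor best known from progenitors and neurons. Its values were 1436, 1607 and 1709 in OB, 666, 754 and 998 in HC, 991 and 934 in CX, and 455, 501 and 335 in BS. Every OB sample was above, and every BS sample below, all samples of the other regions, while HC and CX overlapped. Such a separation was not rare among the genes tested, since 4.93% had all OB samples on top and 4.19% had all BS samples at the bottom. OB exceeded BS by 1.89 ± 0.19 (SE) on the log2 scale (adjusted p = 9.42e-06) and HC by 0.99 ± 0.19 (adjusted p = 0.00424). CX exceeded BS by 1.18 ± 0.21 (adjusted p = 0.00232) and HC exceeded BS by 0.90 ± 0.19 (adjusted p = 0.0118). The HC to BS call was lost without HC replicate 3 (adjusted p = 0.0647) or BS replicate 3 (adjusted p = 0.0658). The remaining 2 pairs did not pass. OB minus CX was 0.71 (95% interval 0.26 to 1.17, adjusted p = 0.0736) and HC minus CX was -0.28 (95% interval -0.73 to 0.18). Of the 8 neuroblast and cycling markers tested, 5 were also called higher in OB than in BS and 0 lower. Cd24a and the cycling genes Top2a and Mki67 went the other way in their means. These were 66.9, 6.82 and 10.7 in OB against 135, 19.6 and 15.9 in BS. Whether such cells contribute to the Fgfr1 values was not tested. The Fgfr1 exons share 125 bases with Gm16159 on the opposite strand.

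Fgfr2, on chromosome 7 from 130162451 to 130266808, had values of 1101, 1249 and 1401 in OB, 741, 1299.7 and 1119 in HC, 1578 and 1351 in CX, and 692, 769 and 799.8 in BS. The BS samples lay below every OB and CX sample and overlapped only with the lowest HC sample. CX exceeded BS by 0.96 ± 0.22 (SE) on the log2 scale (adjusted p = 0.0117), and OB exceeded BS by 0.73 ± 0.20 (adjusted p = 0.0215). The first call was lost without CX replicate 1 (adjusted p = 0.149) or CX replicate 2 (0.0526), and the other one without OB replicate 2 (0.0675), OB replicate 3 (0.0979) or BS replicate 1 (0.0649). OB, HC and CX did not pass the test against each other, with OB minus CX at -0.23 (95% interval -0.70 to 0.24). The F-test call was lost without OB replicate 3 (adjusted p = 0.0512), CX replicate 1 (0.0899), CX replicate 2 (0.0508), BS replicate 1 (0.0636) or BS replicate 3 (0.0581).

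Fgfr3, on chromosome 5 from 33721724 to 33737068, is the receptor most typical of astrocytes. Its values were 1576, 1431 and 1967 in OB, 1197, 2073 and 2551 in HC, 2741 and 2927 in CX, and 1334, 2855 and 1909 in BS. The CX samples lay above all OB and HC samples, but 1 BS sample lay between them. CX stood 0.65 ± 0.29 (SE) above the other regions pooled on the log2 scale, with an unadjusted p of 0.0416 and an adjusted p of 0.478, so that no difference was called. The interval of OB minus BS, -0.84 to 0.37, leaves room for moderate differences in either direction.

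The receptors were also compared within each sample, as shares of the summed Fgfr1, Fgfr2 and Fgfr3 value per kb, which no scaling between samples can move. Fgfr1 made up 33.2% ± 1.95 (SD, n = 3) of the receptor transcripts in OB, 20.1% ± 3.46 (SD, n = 3) in HC, 16.8% ± 0.537 (SD, n = 2) in CX and 12.6% ± 3.71 (SD, n = 3) in BS. The lowest OB share, 31.5%, was above the highest of any other region, 23.7%. Fgfr3 took the opposite course, from 39.5% ± 3.06 in the OB to 53.0% ± 4.32 in HC, 56.5% ± 3.20 in CX and 64.3% ± 7.54 in BS, with no OB sample above any other. Fgfr2 kept region means between 23.1% and 27.4%. The ratio of Fgfr1 to Fgfr3 per kb was 0.798, 0.983 and 0.761 in OB, 0.487, 0.318 and 0.343 in HC, 0.317 and 0.279 in CX, and 0.299, 0.154 and 0.154 in BS. The OB samples thus had Fgfr1 closer to Fgfr3 per kb than any sample of the other regions. Fgfr3 held the largest share in all 11 samples, by little in OB replicate 2. The HC, CX and BS ranges of this ratio were adjacent or overlapping. The summed receptor level ranged over 873 to 1079 per kb in OB and 538 to 909 in BS and overlapped between these regions.

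**Figure D2:**
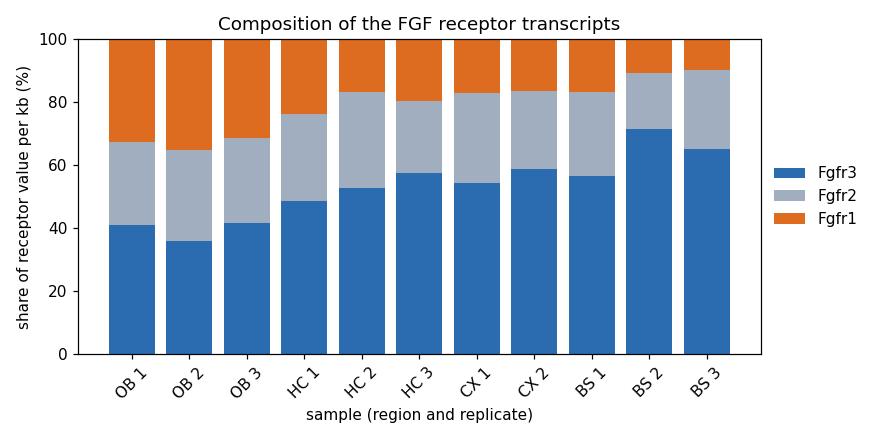
Share of Fgfr3, Fgfr2 and Fgfr1 in the summed receptor value per kb (vertical axis, percent) in each of the 11 samples (horizontal axis, region and replicate). The Fgfr1 segment takes 31.5% to 35.3% in OB samples and at most 23.7% in the others.

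Sprouty proteins are inhibitors of receptor tyrosine kinase signalling induced by it. Spry2, on chromosome 14 from 105891947 to 105896819, was the most expressed of them. It had values of 377, 379.7 and 361 in OB, 195, 283 and 434 in HC, 304.0 and 303.6 in CX, and 198, 337 and 259 in BS. The OB and CX samples were tight and the HC samples spread 2.23-fold across the range of all other regions, and no pair of regions differed by the test (OB minus BS 0.53, 95% interval -0.03 to 1.09, adjusted p = 0.214).

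Spry4, on chromosome 18 from 38586247 to 38601347, had values of 127, 155 and 157 in OB, 88.1, 86.8 and 117 in HC, 146 and 120 in CX, and 62.0, 118 and 42.1 in BS. The OB samples lay above every HC and BS sample. OB exceeded BS by 1.09 ± 0.34 (SE) on the log2 scale (adjusted p = 0.0400). That call was near the threshold. It was lost in 14 of 22 alternative settings, among them leaving out any OB sample (adjusted p from 0.0687 to 0.124), HC replicate 2 (0.0518), either CX sample (0.0561 and 0.0544), BS replicate 1 (0.103) or BS replicate 3 (0.165). The adjusted p ranged from 0.00296 to 0.280 over all of them. Without BS replicate 2, the highest of its region, Spry4 differed among the 4 regions (adjusted p = 0.0104).

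Spry1, on chromosome 3 from 37639947 to 37644599, was near the detection limit, with 5 to 32 reads per sample and values from 7.67 to 35.8. No regional difference was detectable at this depth, and the interval of OB minus BS, -1.97 to 0.82 on the log2 scale, was wide.

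Etv4 and Etv5 are PEA3-type transcription factors and targets of ERK. Etv4, on chromosome 11 from 101769747 to 101785310, had values of 54.3, 82.1 and 74.3 in OB, 21.2, 45.7 and 31.6 in HC, 46.5 and 35.3 in CX, and 17.9, 36.1 and 27.4 in BS. All OB samples lay above all others, as for 4.93% of all genes tested, and the other 3 regions overlapped. OB exceeded BS by 1.38 ± 0.44 (SE) on the log2 scale (adjusted p = 0.0461) and the other regions pooled by 1.12 ± 0.35 (unadjusted p = 0.00656, adjusted p = 0.0948). The OB to BS call was lost in 11 of 22 alternative settings, among them leaving out any OB sample (adjusted p from 0.0674 to 0.149), HC replicate 3 (0.0534), either CX sample (0.0643 and 0.0611), BS replicate 1 (0.157) or BS replicate 3 (0.0898). The call against the other regions pooled was lost without OB replicate 2 or 3, HC replicate 1 or BS replicate 3. BS counts for this gene were 13 to 18 reads.

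Etv5, on chromosome 16 from 22381313 to 22439570, was about as abundant per kb as Fgfr2. Its values were 928, 846 and 1029 in OB, 675, 923 and 1039 in HC, 808 and 919.9 in CX, and 473, 1139.9 and 621 in BS. The BS samples alone spanned the range of all regions, and Etv5 did not differ by the test (F-test adjusted p = 0.642), except in the fit without BS replicate 2 (adjusted p = 0.0463). OB minus BS was 0.42 (95% interval -0.14 to 0.98).

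Etv and Sprouty genes are known targets of the repressor Capicua (Cic), which binds an octamer and is released from its targets by ERK activity. RefSeq promoter sequences of GRCm38.p6, 250 bases before to 50 after a start, were at hand for 6 members in 8 entries. They were searched on both strands for the 8 forms of the octamer, TGAATGAA, TGAATGAG, TGAATGGA, TGAATGGG, TCAATGAA, TCAATGAG, TCAATGGA and TCAATGGG, which share letters with each other but cannot hold one another. Of 32851 promoters, 7.02% held at least 1 and 0.0791% held 3 or more. An Etv5 promoter held 3 and the Spry2 promoter held 1, and the other 6 entries, the other one of Etv5 and those of Fgf2, Fgfr2, Fgfr3 and Spry1, held none. The 250 bases before the start are shown for these 2 because they were the only entries with a match, and the capitals mark the octamers, some of which read on the opposite strand. The Etv5 stretch is chr16:22438369-22438618 on the minus strand, at an inner start of the gene where the annotation has no exon, and the Spry2 stretch is chr14:105896820-105897069 on the minus strand, outside any annotated gene. A match is a description of the letters and not evidence of binding. Cic itself had region means from 351 to 464 and did not differ among the regions (adjusted p = 0.524).
Etv5: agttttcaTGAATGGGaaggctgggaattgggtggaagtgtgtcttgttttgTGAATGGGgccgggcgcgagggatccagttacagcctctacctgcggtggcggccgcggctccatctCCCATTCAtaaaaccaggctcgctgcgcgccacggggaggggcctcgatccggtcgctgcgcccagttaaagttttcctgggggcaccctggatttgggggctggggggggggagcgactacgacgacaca
Spry2: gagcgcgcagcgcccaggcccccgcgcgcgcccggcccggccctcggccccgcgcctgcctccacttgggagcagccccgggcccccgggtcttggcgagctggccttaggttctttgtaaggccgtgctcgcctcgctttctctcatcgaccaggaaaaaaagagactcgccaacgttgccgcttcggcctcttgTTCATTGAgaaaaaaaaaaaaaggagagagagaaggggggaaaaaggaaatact

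Over the 6 pairs of regions, 8 of 60 member and pair combinations were called. In the OB to BS pair 4 of 10 members were called, Fgfr1, Fgfr2, Spry4 and Etv4, all higher in OB, against 15.0% of all genes, and the median log2 difference of the 10 was 0.63 against 0.02 over all genes. In the CX to BS pair Fgfr1 and Fgfr2 were called, both higher in CX (background 10.9%). Fgfr1 alone was called between OB and HC (7.11%) and between HC and BS (4.63%). No member was called between OB and CX, where the background was 4.91% and 2 members had an unadjusted p under 0.05, or between HC and CX, where it was 1.23% and 1 member did. The comparisons share samples, so that their counts are not independent.

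**Figure D3:**
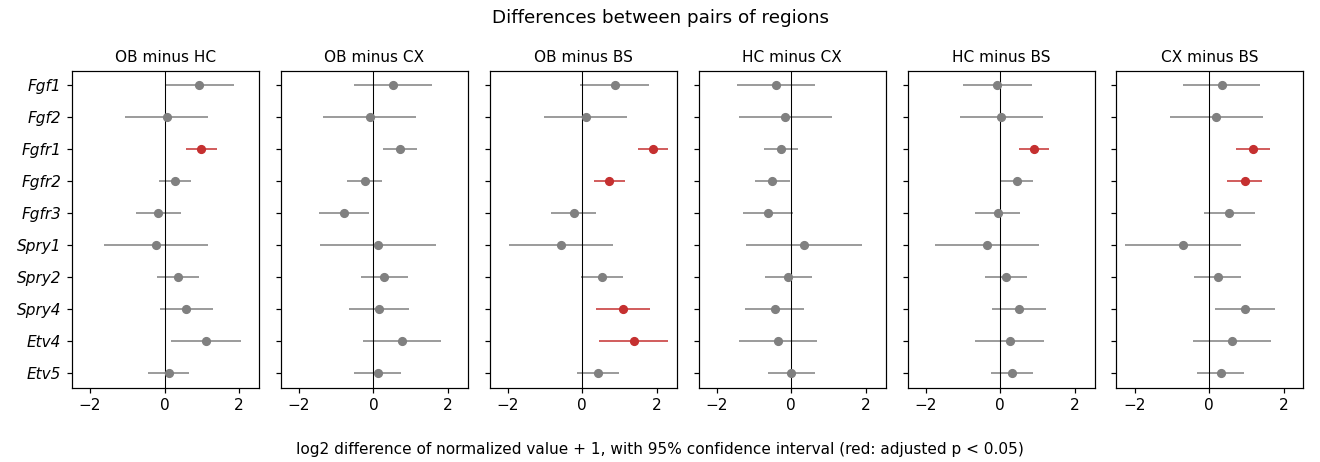
Difference between 2 regions in log2(value + 1) (horizontal axes) for each of the 10 members (rows) in the 6 pairs of regions, as the limma estimate with its 95% confidence interval, red where the adjusted p was under 0.05. The 8 red points are all to the right of 0 and lie in the panels of OB minus HC, OB minus BS, HC minus BS and CX minus BS.

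The study set each region against the other 3 pooled. Here a gene was called in such a comparison with its thresholds, a fold change above 1.5, a p below 0.01, taken as unadjusted, and values above 5 in 2 or more replicates of 1 region. The study also kept to genes that differed in 1 region only, which was not required here, and Fgfr1 was called in both OB and BS. By this rule Fgfr1 (log2 difference 1.26 ± 0.30, SE, adjusted p = 0.0282) and Etv4 were called in OB, both higher, where 8.04% of all genes were called. Fgfr1 (-1.34 ± 0.27, SE, adjusted p = 0.0116) and Fgfr2 (-0.68 ± 0.19, SE, adjusted p = 0.0543) were called in BS, both lower, where the share was 9.03%. The Fgfr2 call was lost without BS replicate 1 (adjusted p = 0.217). In HC (1.28%) and in CX (2.77%) 0 members were called by limma, edgeR or DESeq2. At an unadjusted limma p under 0.05 the HC had 0 and the CX had 1, Fgfr3, which stood higher there.

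The 3 BS samples differed in their astrocyte markers, and several members ranked like these markers within the BS. The values were therefore also divided by the geometric mean of the 10 astrocyte markers of each sample. This scaling was chosen after the data were seen. It rests on markers that themselves vary by region, as Gfap and Slc1a3, a glutamate transporter, differed among the regions and were lower in BS than in OB by 1.28 and 2.66 on the log2 scale. It also moved the OB to BS difference of the median gene from 0.02 to -0.41, and that of CX to BS from -0.03 to -0.72, so that the values below are to be read against these shifts. The higher Fgfr1 of the OB remained. OB exceeded BS by 1.46 on the log2 scale (adjusted p = 0.00138), and the F-test gave an adjusted p of 0.00596 where 12.4% of all genes passed. The lower values of the BS did not pass the tests after scaling. Fgfr1 then ranged from 431 to 839.9 in BS against 667 to 848 in HC, its difference between CX and BS was 0.48 (adjusted p = 0.241), that between HC and BS was 0.51 (adjusted p = 0.324), and Fgfr2 passed no test (F-test adjusted p = 0.702). The OB to BS differences fell to 0.66 for Spry4 (adjusted p = 0.280) and 0.95 for Etv4 (adjusted p = 0.201).

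For Fgfr3 the scaling narrowed the spread within BS. Its 3 BS values, 1334, 2855 and 1909 as deposited, became 2461, 2505 and 2460 after scaling. The samples of the other regions then ranged from 1425 to 2356. How many genes had all BS samples on top after scaling was not counted. The scaling raised the median gene of BS against each other region. OB was then below BS by 0.67 ± 0.17 (SE) on the log2 scale (adjusted p = 0.0192, with 11.5% of all genes called), a difference not called on the deposited values, where it was -0.24. The size of this change is that of the shift of all genes in the pair. The narrower BS spread was not particular to Fgfr3. Before scaling Etv4 ranged from 17.9 to 36.1 in BS and after it from 31.6 to 35.3. For Spry2 these ranges were 198 to 337 and 295 to 365, and for Etv5 473 to 1140 and 800 to 1000. After scaling Etv5 ranged from 842 to 906 in OB and 817 to 859.5 in HC and averaged 891 ± 101 (SD, n = 3) in BS. Its 2 CX values were lower, 621 and 741, and it did not differ among the regions by the test (F-test adjusted p = 0.515). Some other BS ranges widened. For Fgf1 they were 727 to 1928 before and 638 to 3557 after scaling, and for Fgfr2 692 to 799.8 and 675 to 1276. Without the 2 samples highest in choroid plexus markers, BS replicate 1 and HC replicate 1, which was also tried after the data were seen, the F-test again called Fgfr1 and Fgfr2, and 8 combinations of member and pair were called, but not the same ones. The OB to BS differences of Spry4 (adjusted p = 0.106) and Etv4 (adjusted p = 0.133) were lost, as was the higher Etv4 of OB against the other regions pooled, where Fgfr3 was called instead, lower in OB. Between OB and CX, Fgfr1 (0.71, adjusted p = 0.0435) and Fgfr3 (-0.79, adjusted p = 0.0274) were then called. In this fit BS and HC each had 1 sample fewer, and the share of all genes called in it is not given here.

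**Figure D4:**
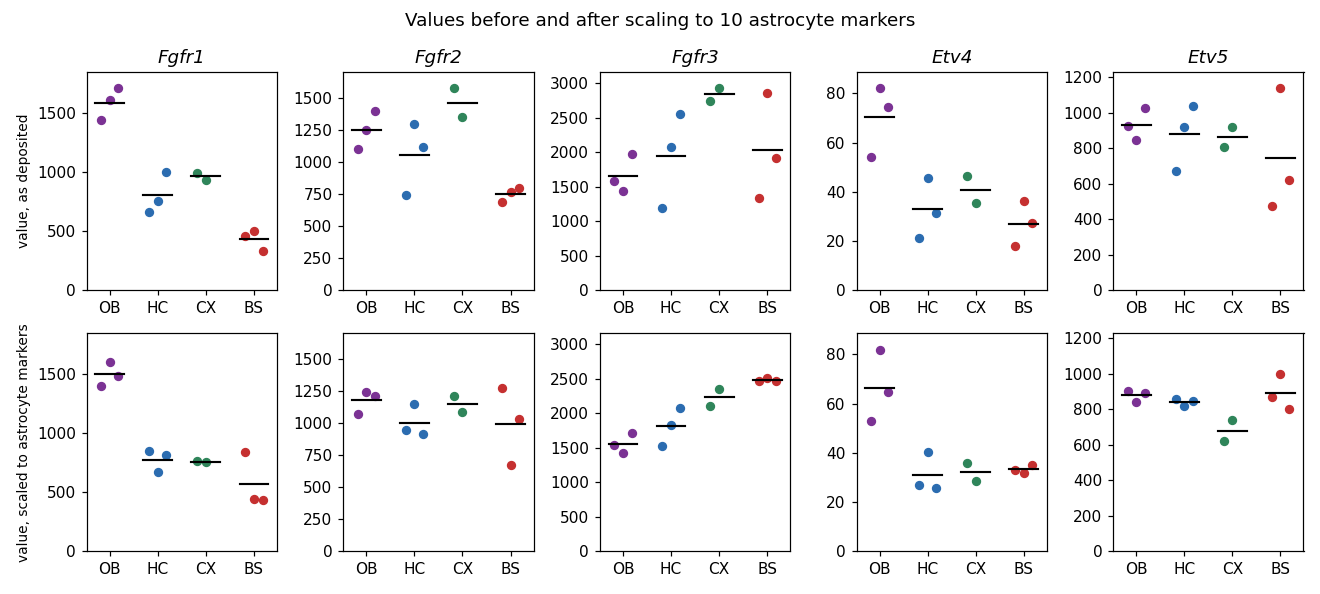
Values of Fgfr1, Fgfr2, Fgfr3, Etv4 and Etv5 (columns, linear vertical axes) in the 11 samples as deposited (upper row) and divided by the geometric mean of 10 astrocyte markers (lower row), with 1 point per sample and a line at the region mean. The 3 OB points of Fgfr1 stay above all others in both rows, and the BS points of Fgfr3 move from a range of 1334 to 2855 to one of 2460 to 2505. As deposited, 4.93% of all genes tested had all OB samples on top, and the share after scaling was not counted.

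Within regions the samples ranked alike for several members. In BS, Fgf2, Fgfr3, Spry2 and Etv4 had the same order of the 3 samples as Etv5, and so did the geometric mean of the astrocyte markers, with replicate 1 lowest and replicate 2 highest. In HC this held for Fgf1, Fgfr1, Fgfr3 and Spry2, and in OB for Fgf1, Fgf2 and Fgfr3. Counting Etv5, 5 of 10 members followed the astrocyte markers in BS and in HC and 4 in OB, against 20.4%, 17.9% and 17.5% of all genes tested. This is a description over 3 samples per region.

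The other genes of the pathway were read from lists chosen by their role, and their counts are to be read against all genes tested, of which 16.5% differed among the regions and 15.0% between OB and BS, 1028 higher and 1047 lower in OB. Of 16 other secreted ligands, 12 were too low to test, and 6 of these, Fgf4, Fgf6, Fgf8, Fgf15, Fgf20 and Fgf21, had 0 reads in all 11 samples. The 4 tested were low too, and 3 differed among the regions. Fgf10 had means of 16.6 in OB, 6.46 in HC and 30.9 in BS and was listed at 0 in both CX samples. Fgf18 was listed at 0 in the 3 OB samples and averaged 13.5 ± 3.88 (SD, n = 3) in BS (adjusted p = 0.00491). Fgf9 had its highest mean in BS, 11.5, and its lowest in CX, 0.767. All 3 are paracrine ligands.

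The intracellular FGF homologous factors share the fold of FGFs but act on sodium channels inside the cell and not on receptors. Of these 4 genes 2 differed among the regions. Fgf13 had means of 154 ± 39.9 (SD, n = 3) in OB, 222 ± 31.7 in HC, 386 ± 36.6 (SD, n = 2) in CX and 27.1 ± 7.81 in BS, and was lower in BS than in OB by 2.47 on the log2 scale (adjusted p = 3.49e-05). Fgf12 averaged 480.0 ± 34.8 in OB and 179 ± 8.50 in HC, 372 ± 66.0 in CX and 223 ± 98.9 in BS.

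Among 9 other receptors, co-receptors and binding proteins, Fgfr4, the remaining receptor gene, had 3 reads in all and Klb 15, and 4 of the 7 tested differed. Flrt2, which encodes a membrane protein that binds FGF receptors and guidance receptors, averaged 55.5 ± 16.5 (SD, n = 3) in OB, 279 ± 58.8 in HC, 232 ± 54.0 (SD, n = 2) in CX and 609 ± 51.8 in BS, the reverse of Fgfr1 at the ends of the order. It was lower in OB than in BS by 3.47 on the log2 scale (adjusted p = 3.93e-07). Its relative Flrt1 averaged 268 in OB and 577 in BS (adjusted p = 0.00851), and Flrt3 45.5 and 92.1 (adjusted p = 0.134). Kl, the Klotho co-receptor of hormone-like FGFs and a well known choroid plexus gene, averaged 5.92 in OB, 4040.0 in HC, 178 in CX and 3744 in BS, the same pattern over regions as the choroid plexus markers.

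Of 9 heparan sulfate core proteins tested, 4 differed among the regions by limma and 0 between OB and BS by limma, edgeR or DESeq2 at an adjusted p under 0.05, with 2 at an unadjusted limma p under 0.05. Sdc3, a syndecan, averaged 3055 ± 468 (SD, n = 3) in OB and 2998 ± 1370.0 (SD, n = 3) in BS against 810 ± 112 in HC and 649 ± 97.0 (SD, n = 2) in CX. The glypican Gpc6 was highest in CX at 1457 ± 52.3 and lowest in BS at 294 ± 93.9, and the enzyme gene Hs2st1 had the same order of these regions at 627 and 282, as Fgfr2 did. Gpc4 had its lowest mean in OB, 110 ± 10.9, and Gpc3 its lowest in CX, 2.93. Of 14 synthesis and editing enzymes 5 differed, Sulf1, Hs6st2, Sulf2, Hs2st1 and Ndst4. Between OB and BS 0 of the 14 passed by limma or edgeR and 2 by DESeq2, with 6 at an unadjusted limma p under 0.05. Sulf1, a sulfatase that removes sulfate groups used by FGFs, averaged 334 in OB, 880 in HC and 613 in BS against 42.9 ± 8.63 (SD, n = 2) in CX. Its relative Sulf2 had its highest mean in OB, 341 ± 44.0.

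Of 21 intracellular transducers, adaptors such as Frs2 and the kinases after them, all tested, 3 differed among the regions, 14.3% against 16.5% of all genes. They were the adaptor Gab2, the phosphatase Ptpn11 and the kinase Braf, each lower in OB than in BS, with log2 differences of -1.71, -0.70 and -0.79. The median OB minus BS difference of the 21 was -0.0046.

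Of 12 other feedback inhibitors and targets, 9 could be tested, and 2 differed among the regions, Etv1 and the phosphatase gene Dusp7. Between OB and BS 3 of the 9 were called, all higher in OB, against 15.0% of all genes in either direction, and the median difference was 0.64 on the log2 scale against 0.02. Etv1, the third PEA3-type factor, averaged 1421 ± 51.8 (SD, n = 3) in OB, 634 ± 70.9 in HC, 860 ± 78.7 (SD, n = 2) in CX and 772 ± 279 in BS. Its lowest OB value, 1377, was above the highest elsewhere, 1002, and 4.93% of all genes tested had all OB samples on top. OB exceeded BS by 0.95 ± 0.23 (SE, adjusted p = 0.0113). Dusp7 averaged 233 in OB and 218 in BS against 123 in HC and 96.8 in CX. Its OB minus BS difference was 0.11 (adjusted p = 0.879). Dusp6, the ERK phosphatase most tied to FGF signalling, averaged 228 ± 57.2 in OB and 112 ± 43.7 in BS (log2 difference 1.06 ± 0.31, adjusted p = 0.0298). Il17rd, a membrane inhibitor also called Sef, averaged 146 ± 56.5 in OB and 56.0 ± 27.9 in BS (1.41 ± 0.40, adjusted p = 0.0251). Over all 4 regions Dusp6 and Il17rd did not pass, with adjusted p-values of 0.0746 and 0.0526. Spred1, another inhibitor, had its lowest mean in BS, 1962, and an adjusted p of 0.0502. The 9 immediate early genes, which cell dissociation can induce, summed to 2049 to 4314 in OB and 1020.0 to 5886 in BS. In HC the sum was 383 to 5905 and in CX 1210 to 1749. Their median OB minus BS difference was 0.53 on the log2 scale, against 0.63 for the members. With this wide spread, 0 of them differed among the regions or between OB and BS by limma, edgeR or DESeq2. At an unadjusted limma p under 0.05 the count was also 0. Whether dissociation had a part in the OB to BS differences was not tested.

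As a description, the 3 genes whose log2 values over the 11 samples were most like those of a member were sought among 11293 genes with a mean of at least 20. For Fgfr1 they were Sec14l1 (Pearson r = 0.976), Cd302 (0.963) and Dlx6os1 (0.963). The last, an antisense RNA of the interneuron gene Dlx6, averaged 123 in OB, 17.3 in HC and 24.7 in CX and was listed at 0 in BS. For Fgfr2 they were Aplp2 (0.950), Dnajc1 (0.948) and Smad5 (0.944), and for Spry4 they were Lactb (0.973), Tprgl (0.958) and Gsg1l (0.949). The points share the regions and the libraries, and no test was made.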

How the data were processed

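Aldh1l1-eGFP astrocytes of 4 regions were profiled by RNA-seq in 11 samples, from libraries of total RNA made with the Trio kit after rRNA depletion. Per the labels and the study's methods, the authors mapped reads to mm10 with STAR 2.5.0a, counted them on UCSC gene models and normalized with DESeq2 1.20.0. The deposited signal, which the methods call RPM, is a count divided by 1 size factor per sample. Divided by the smallest value of its sample, 100% of the entries above 0 gave a whole number within 0.01, and these were taken as the reads. Depth limits the members with few reads most, and 3 reads, taken as the floor, equal a value of 1.10 to 6.31. Two-sided tests used limma 3.58.1 in R 4.3.3 with a mean-variance trend on log2(value + 1), after the filterByExpr filter of edgeR on reads, which kept 13875 genes. P-values were adjusted over all of these by the method of Benjamini and Hochberg, within each comparison. On the recovered reads the F-test over regions called 2073 genes in edgeR 4.0.16 (TMM) and 3062 in DESeq2 1.42.0, against 2285 in limma.

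The members and all gene lists were chosen with earlier results of these data known. Genes named beside the members are, per list, up to 4 called by the F-test in order of p, and any gene behind a count of 5 or fewer. Some results for single genes of these lists are not reported here. Gene positions are those of RefSeq on GRCm38.p6, which has the sequence of mm10, and lengths per kb those of GENCODE M21 transcripts. The fits were tested on simulated data. Tables were handled with Python 3.11.15, numpy 2.4.6 and pandas 2.3.3 and drawn with matplotlib 3.10.9. Replicate numbers are shared between regions. The deviations of same-numbered samples from their region means had correlations between -0.160 and 0.250 over 15 pairs, with 3 pairs over 0.1. They were 0.195, 0.074 and 0.250 for OB and HC, and of either sign for the other pairs. Samples were not treated as paired, but with so few per region these correlations cannot exclude that regions shared animals. Alternatives were other pseudocounts, no filter, edgeR and DESeq2, TMM scaling, no trend, other thresholds, a replicate block, equally weighted regions, leaving out each sample, and the scaling and exclusion chosen after the data were seen.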

Additional observations from a re-analysis of the deposited data

How the results depend on the processing

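No called difference changed its direction under any alternative. Of the differences that were not called, the scaling to astrocyte markers turned the sign of 17 of 60 between pairs and 13 of 40 of 1 region against the rest, among them Etv5 between OB and BS (0.42 to -0.01), Fgfr2 between OB and CX (-0.23 to 0.03) and Fgfr1 between HC and CX (-0.28 to 0.03). Of the single-gene results, 223 kept their side of the threshold under the alternatives that used all samples or dropped 2 by choroid plexus markers, 22 fell below it and 1 rose above it, and when single samples were left out the counts were 205, 33 and 4. Fgfr1 was called among the 4 regions in all 22 alternatives, with adjusted p-values from 2.29e-15 to 0.00596. Leaving out single samples gave 1 to 4 members called among the 4 regions (4 without BS replicate 2, and 1 without OB replicate 3, BS replicate 1 or BS replicate 3), 5 to 11 combinations between pairs (8 in full), 1 to 3 members in the OB (1 without OB replicate 2 or 3, HC replicate 1 or BS replicate 3) and 1 to 4 in the BS (4 without BS replicate 2, 1 without BS replicate 1). It gave 5 combinations without OB replicate 2 or 3, either CX sample, or BS replicate 1 or 3. Scaling to astrocyte markers left 1 member among the regions, 3 combinations between pairs, 1 member in the OB and 0 in the BS, where 1632 of 13875 genes were called. Limma without the trend left 1 and 4. An adjusted p under 0.01 left 1 and 3, and an adjusted p under 0.05 in place of the unadjusted one left 1 in the OB and 1 in the BS. The causes were not tested. With a block for same-numbered samples, the counts stayed at 2 among the regions, 8 between pairs, 2 in the OB and 2 in the BS. Whether these samples are paired is not stated in the sources used here. Depth limits Fgf2, Spry1 and Etv4, with as few as 13, 5 and 13 reads in a sample, and 2 CX samples limit every comparison with that region.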
